A study of Mus musculus with 9 samples.

Results

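Megakaryocytes are the large polyploid cells of the bone marrow that shed platelets. They also release cytokines, growth factors and matrix proteins that reach neighbouring stem cells, vessels and stroma. Ionizing radiation breaks DNA in every marrow cell, and the dividing precursors of red cells and B cells are among the most radiosensitive cells of the body.

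The comparison set bone-marrow megakaryocytes (mMKs) of mice 1 day after total-body irradiation with 5 Gy of γ-rays (1 dpi) against those of control mice (Ctrl). It was chosen by the labels and holds 6 of the 9 arrays of the series, 3 at 1 dpi and 3 Ctrl; the other 3 arrays, at 3 dpi, were used for the later course. The mice were male and background-matched, and their age is not given in the labels. The study's methods name wild-type C57BL/6 mice and sham-irradiated controls, and describe red-cell lysis followed by positive selection of CD41-bearing and then CD42d-bearing cells. The question was which functions rise and which fall in the acute response over all genes measured, beyond the interferon, p53 and collagen genes, and by how much.

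Each sample was hybridized to 1 single-colour Agilent array, and the number of arrays limits the precision. Of the gene spots, 69.1%, 79.4% and 80.8% were well above background on the Ctrl arrays and 72.3%, 74.8% and 75.6% on the arrays of 1 dpi. Ctrl replicate 1 stood apart: it was alone on its slide, the other 8 arrays shared another slide, and its score on the first principal component (51.5% of the variance) was -126 beside -54.0 and -53.8 for the other Ctrl arrays and 61.1 to 75.2 at 1 dpi. Results are therefore given with all 3 Ctrl arrays and, where said, within the shared slide, against 2 Ctrl arrays. On that slide the arrays of both groups lay in different positions, so position and group cannot be told apart. All 20 listed markers of the labelled cell type, megakaryocytes, were well above background on all 3 arrays of each group, and so were all 18 of neutrophils and their precursors, 20 of macrophages, 10 of monocytes and 17 of mesenchymal stroma.

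Of 29410 genes tested, 4468 (15.2%) were called at 1 dpi, at an adjusted p under 0.05 and a change of at least 2-fold; 3623 (12.3%) were higher and 845 (2.87%) lower. The split of directions depended on how the arrays were scaled to each other: 81.1% of called genes were higher after scaling to the 75th percentile, 48.9% after scaling to the array median and 56.2% after quantile normalization. The median change over all genes was 0.25 on the log2 scale under the first of these, -0.07 under the second and 0.00062 under the third. Measured relative to that median, 2105 genes were called higher and 1727 lower when tested again. Functions are therefore described by the 1595 genes (5.42%) called higher and the 839 (2.85%) called lower under all 3 scalings, and by medians relative to the median of all genes. Olfactory and vomeronasal receptors and keratins, taken as controls, had medians of 0.44 and 0.41 relative to all genes (0.22 and 0.29 after quantile normalization), so list medians of that size or below were also seen in genes unrelated to marrow.

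Gene signal and spike-in signal differed in opposite directions. The E1A spike-in probes had a median log2 signal of 11.81, 11.71 and 11.74 on the Ctrl arrays and 12.62, 12.58 and 12.45 at 1 dpi, while the 75th percentile of gene spots was lower by a mean log2 difference of -1.04. Scaled to the spike-ins, 225 genes were called higher and 22813 lower. The values below therefore describe changes relative to the other genes of the same array, and RNA per cell was not measured.

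Most genes moved little and a minority moved far. The change lay within 0.5 log2 units of 0 for 14990 genes (51.0%), and the 5th to 95th percentiles ran from -0.83 to 1.51. The median change was 1.37 among genes called higher and -1.37 among those called lower, beside a median standard error of 0.12. Among genes called under all 3 scalings, 643 rose and 205 fell at least 4-fold. Rises were spread over the whole range of signal, while falls were fewer among bright genes. With genes split by signal into 10 equal groups, the 3 brightest held 45, 19 and 4 of the 839 falls, the last the brightest. The same groups held 96, 83 and 125 of the 1595 rises. The sizes depend on how background is treated: after normexp correction with quantile normalization, the fold change of 54 of 144 named genes was smaller by more than 1.5 times, and the median fall of the absolute log2 change was 0.376. For example, Tnfsf4 then read 2.76, Bmp4 2.10 and Tgfb3 1.62, beside the larger values given below.

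**Figure D1:**
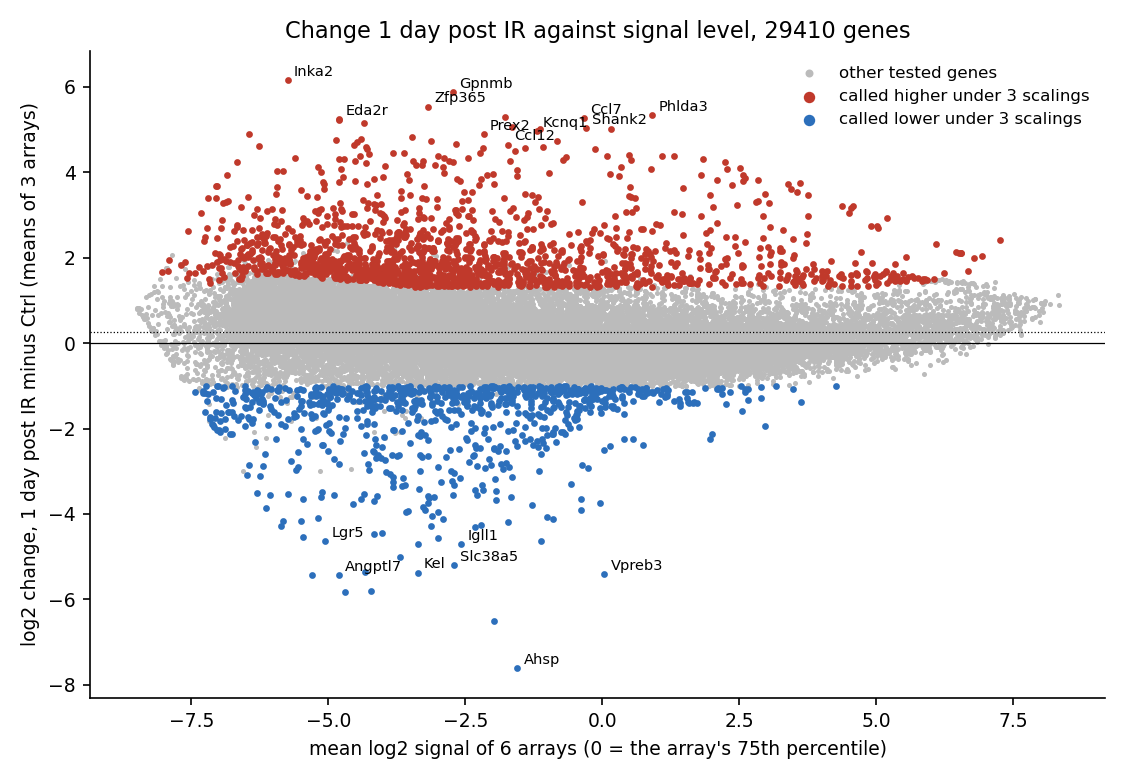
Log2 change, 1 dpi minus Ctrl (vertical axis), of each of the 29410 tested genes against its mean log2 signal on the 6 arrays, where 0 is the array's 75th percentile (horizontal axis), with colours for genes called under all 3 scalings. The 1595 rises and 839 falls lie around the median of all genes, 0.25 (dotted line).

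Secreted signals rose in part. Over chemokines, haematopoietic cytokines and growth factors together, 32 of 98 tested genes were called higher and 3 lower under all 3 scalings, beside 5.42% and 2.85% of all genes, and their median was 0.69 above that of all genes (0.63 after quantile normalization). Chemokines, which draw leukocytes, gave 12 of 32 higher, with a median of 0.88 relative to all genes. The monocyte attractants Ccl2, Ccl7 and Ccl12 are neighbours on chromosome 11 (probes between 81850650 and 81916769, build mm9). Ccl12 read -4.09, -4.02 and -4.01 on the Ctrl arrays and 0.66, 0.55 and 0.60 at 1 dpi (4.65 ± 0.061, SE, n = 3 per group, adjusted p 5.1e-08), and Ccl2 read 0.90, 0.82 and 0.78 against 4.07, 4.03 and 4.12 (3.24 ± 0.063, adjusted p 1.1e-07). All arrays of 1 dpi lay above all Ctrl arrays for both. Such separation was a condition for naming most genes here and below, and 4440 of the 4468 called genes had it. Cxcl12, the stromal chemokine that holds stem cells in the marrow, rose by 2.71, from 1.94, 1.59 and 1.59 to 4.51, 4.32 and 4.44.

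Growth factors and cytokines of several families took part. Under all 3 scalings 12 of 36 growth factors were higher and 1 lower, and 9 of 31 haematopoietic cytokines were higher and 2 lower. Fgf2, a fibroblast growth factor, read -5.23, -4.16 and -4.02 in Ctrl and 0.37, -0.01 and -0.06 at 1 dpi (4.57 ± 0.299, adjusted p 1.9e-05), without overlap and with Ctrl replicate 1 lowest. Lif, a cytokine of the interleukin-6 family, rose by 4.17 from -5.88, -4.68 and -4.84 to -0.58, -1.09 and -1.21. Gdf15, a stress-induced member of the TGF-β superfamily, rose by 3.07, from -0.14, -0.28 and -0.23 to 2.93, 2.80 and 2.81. Bmp4 rose by 2.98, Tgfb3 by 2.44 and Tnfsf4, the ligand of OX40, by 4.34. Angpt1, the ligand of the endothelial and stem-cell receptor Tie2, fell by 1.08.

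The promoters of these signals were read for a site of AP-1, the Fos and Jun dimer that drives immediate responses. The letters TGAGTCA were sought on both strands from 250 bases before to 50 bases after each RefSeq gene start (build GRCm38.p6) and occurred in 1709 of 32851 promoters (5.2%). Of the 32 signals called higher, 25 genes had a promoter in the annotation, giving 26 promoters, and 4 (15.4%) held the letters, those of Cxcl9, Cxcl10, Il6 and Lif, named after the search. Of 13 promoters of the falling red-cell genes described below, 2 held them as well (15.4%, those of Kel and Trim10), the same share as among the signals. The match is a description of sequence and says nothing of binding. The Cxcl10 promoter (chr5:92348840-92349139, minus strand, match starting at -74 from the gene start), the Il6 promoter (chr5:30012864-30013163, plus strand, at -249) and the Lif promoter (chr11:4257318-4257617, plus strand, at -228) read, from RefSeq:
Cxcl10: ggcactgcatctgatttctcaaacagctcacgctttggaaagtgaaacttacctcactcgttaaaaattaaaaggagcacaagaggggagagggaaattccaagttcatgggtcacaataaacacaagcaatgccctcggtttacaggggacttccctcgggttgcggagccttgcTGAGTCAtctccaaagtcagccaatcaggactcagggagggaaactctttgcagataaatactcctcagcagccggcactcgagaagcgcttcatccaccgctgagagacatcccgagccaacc
Il6: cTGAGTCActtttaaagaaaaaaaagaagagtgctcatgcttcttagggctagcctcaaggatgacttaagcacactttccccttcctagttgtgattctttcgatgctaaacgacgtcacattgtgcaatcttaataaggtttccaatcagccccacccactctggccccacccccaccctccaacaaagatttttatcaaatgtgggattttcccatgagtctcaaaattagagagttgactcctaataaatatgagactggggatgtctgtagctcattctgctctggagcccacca
Lif: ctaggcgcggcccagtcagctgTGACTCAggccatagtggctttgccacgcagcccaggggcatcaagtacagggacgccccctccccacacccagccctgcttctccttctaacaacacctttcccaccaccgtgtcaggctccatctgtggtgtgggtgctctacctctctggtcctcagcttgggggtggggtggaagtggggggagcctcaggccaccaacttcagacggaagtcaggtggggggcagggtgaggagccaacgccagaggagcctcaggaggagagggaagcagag

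Basement membrane had the highest list median of the 51 function lists. Laminins and other basement-membrane genes gave 11 of 19 called higher under all 3 scalings, including Lama1 and Lama3, which were not well above background on any Ctrl array (Lama3 on 1 of 3 arrays of 1 dpi). Their median was 1.37 above that of all genes (1.35 after quantile normalization). Lama4, a laminin of vessel walls, rose by 2.24 (0.745 and short of 2-fold after normexp and quantile normalization), Col4a1 by 2.02 and Col4a2 by 1.73, and Sparc, a collagen-binding glycoprotein, read 2.45, 2.43 and 2.49 in Ctrl and 5.17, 4.89 and 4.96 at 1 dpi (2.55 ± 0.08, adjusted p 7.7e-07). Matrix metalloproteinases and their inhibitors gave 8 of 25 higher and 1 lower, with a median of 0.52 relative to all genes. Timp1, an inhibitor, rose by 2.77, and the proteases Adamts1 and Adamts2 by 2.91 and 3.04. Serpine2, an inhibitor of thrombin and plasminogen activators, rose by 1.65, while F7, coagulation factor VII, fell by 2.52.

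**Figure D2:**
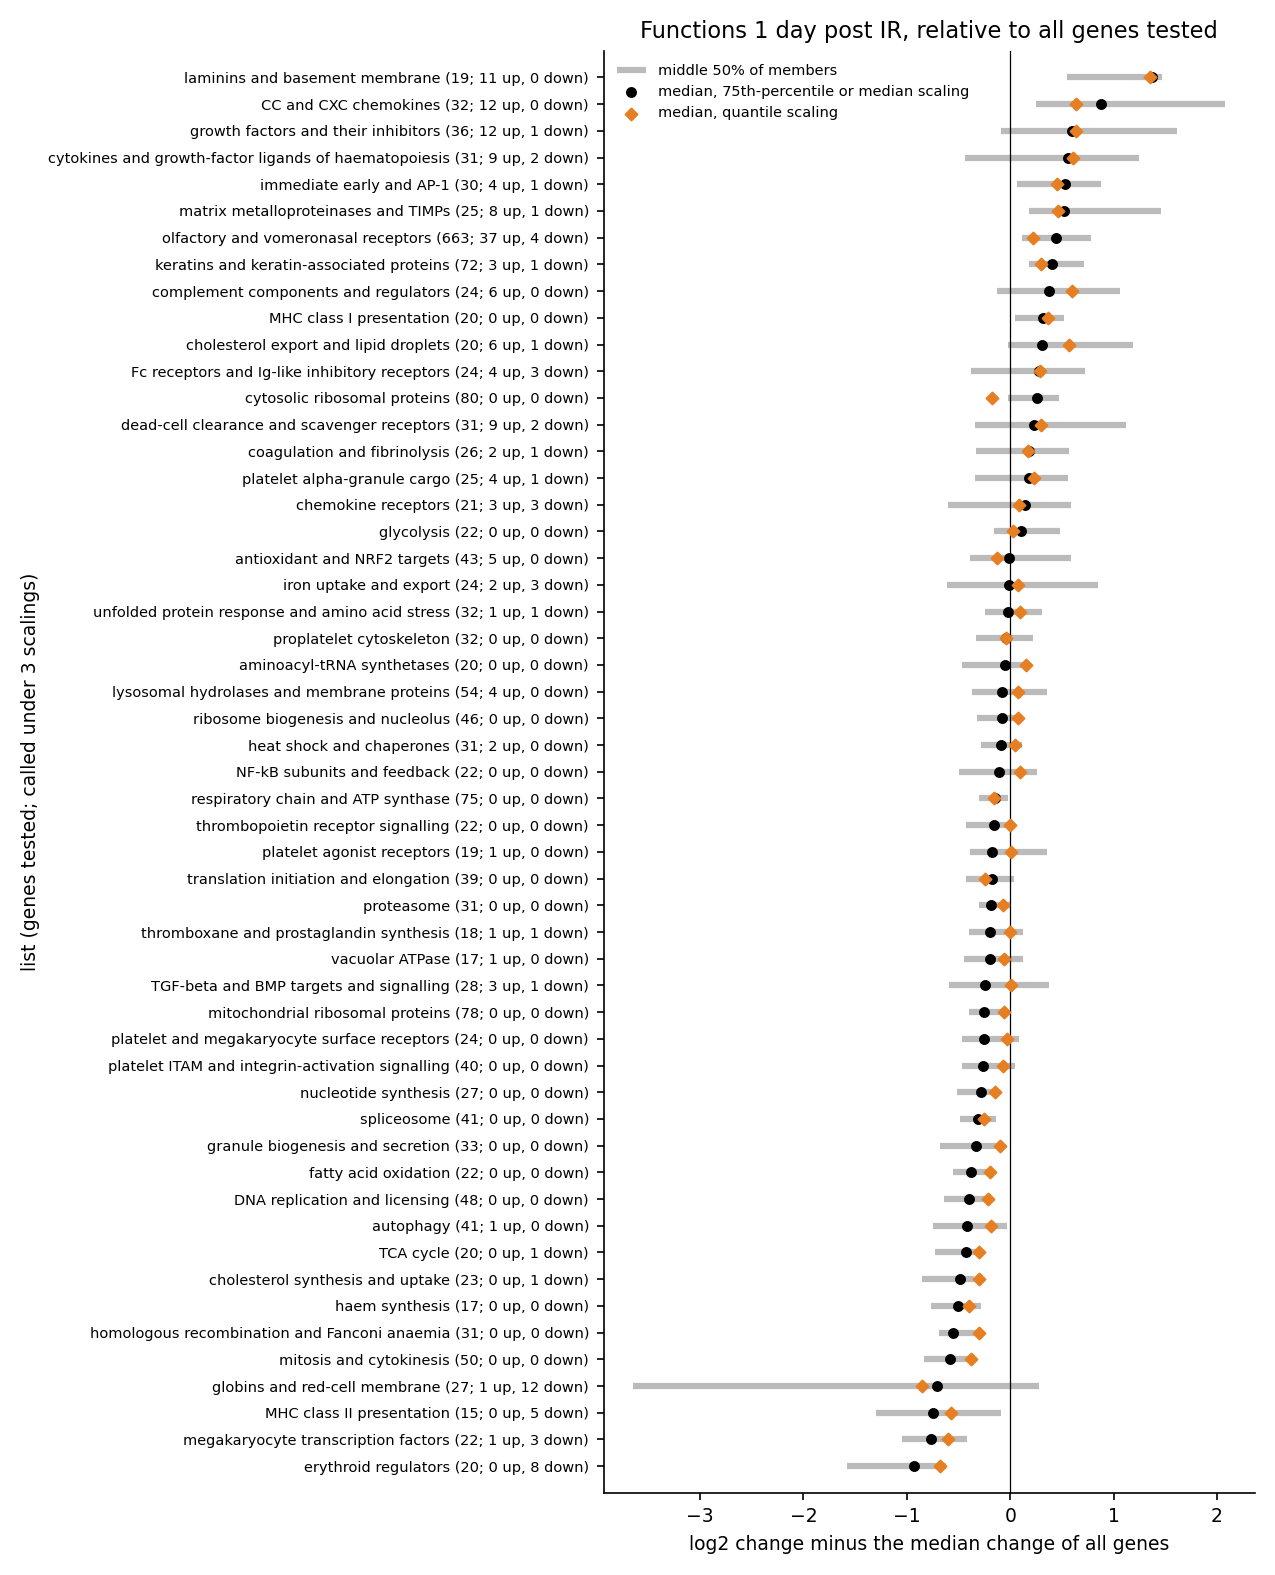
Median log2 change at 1 dpi minus Ctrl less the median of all genes (horizontal axis) for each function list and both control lists (vertical axis, with the genes tested and those called under all 3 scalings), as circles for percentile or median scaling and diamonds for quantile normalization, with grey bars for the middle 50% of members. Laminins and basement membrane stand highest at 1.37 and erythroid regulators lowest at -0.93, and the cytosolic ribosomal proteins change sign between scalings.

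Some receptors for dead cells and their debris rose and others fell. Of 31 tested genes of dead-cell clearance, 9 were called higher and 2 lower under all 3 scalings, beside 5.42% and 2.85% of all genes here and in the lists that follow, with a median of 0.23 relative to all genes. Stab1, a scavenger receptor for phosphatidylserine, read -1.22, -1.39 and -1.34 in Ctrl and 2.37, 2.32 and 2.32 at 1 dpi, a 12.6-fold rise, Marco rose by 2.95, and Cd300lf, another lipid-sensing receptor, by 2.68. Timd4, a phosphatidylserine receptor of resident macrophages, fell by 2.52, and Cd163, the haemoglobin scavenger receptor, by 2.07. Fc receptors gave 4 of 24 higher and 3 lower, with Fcgr1, the high-affinity IgG receptor, up by 2.48 and the largest changes downward, in Fcrla (-4.18), Fcmr (-4.08) and Fcer2a (-3.92), receptors of B cells. Complement gave 6 of 24 called under all 3 scalings, all higher, with a median of 0.38, and Cfb, factor B of the alternative pathway, rose 15.8-fold from -2.83, -3.04 and -3.02 to 1.03, 0.98 and 1.05. Saa3, an acute-phase apolipoprotein, rose 22.4-fold.

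Lysosomal and lipid genes were examined next. Lysosomal genes gave 4 of 54 higher, beside 5.42% of all genes, with a median of -0.08 relative to all genes and 0.08 after quantile normalization, so their direction as a list depended on scaling; Lgmn and Ctsb, lysosomal proteases, rose by 2.07 and 1.46, and Atp6v0d2, a proton-pump subunit, by 1.84. Genes of cholesterol export and lipid droplets gave 6 of 20 higher and 1 lower, with a median of 0.31; Plin2, which coats lipid droplets, rose by 1.86. In the opposite sense Scd1, a fatty-acid desaturase, fell by 1.81 by its brightest probe while its other probe read -0.013, Vldlr, a lipoprotein receptor, by 1.75, and Idi1 of cholesterol synthesis by 1.09, a call lost without Ctrl replicate 1, where the change was -0.999.

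Some immediate-early and stress genes rose. Of 30 immediate-early genes, 4 were called higher and 1 lower under all 3 scalings, with a median of 0.53 relative to all genes. Fosl1, an AP-1 subunit, read -1.14, -1.09 and -1.06 in Ctrl and 0.90, 0.97 and 0.98 at 1 dpi (2.05 ± 0.054, adjusted p 3.6e-07); Egr2 and Egr3 rose by 1.72 and 1.37. Myc, the growth regulator, moved the other way, from 3.09, 2.96 and 2.86 to 1.41, 1.61 and 1.62 without overlap (-1.42; -0.262 by its other probe). Antioxidant genes gave 5 of 43 higher, including Gpx8 (1.72) and Hmox1, haem oxygenase 1 (1.61), while their list median was -0.01 relative to all genes. Among 31 heat-shock genes, 2 were called higher under all 3 scalings, beside 5.42% of all genes, including the small chaperone Hspb1 (1.94), while the list median relative to all genes was -0.09, and 0.04 after quantile normalization. Sesn2, a stress sensor that restrains growth signalling, rose by 1.59.

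The largest fall of any single gene, that of Ahsp, was in red-cell formation. Over erythroid regulators and the globin and membrane genes together, 19 of 46 tested genes were called lower and 1 higher under all 3 scalings, with a median of -0.88 relative to all genes. Ahsp, the chaperone of free α-globin, read 2.19, 2.30 and 2.28 in Ctrl and -4.96, -5.35 and -5.77 at 1 dpi (-7.62 ± 0.184, adjusted p 2.5e-07). Slc4a1, the band 3 anion exchanger, read 0.68, 0.56 and 0.56 against -2.98, -3.21 and -3.36 (-3.78 ± 0.12), and Klf1, the erythroid master regulator, read -2.02, -2.33 and -2.46 against -4.25, -4.45 and -4.37 (-2.09 ± 0.12, adjusted p 1e-05). All arrays of 1 dpi lay below all Ctrl arrays for these genes. The adult globins, chosen after their values were seen, moved oppositely: Hba-a1 and Hba-a2 each had a log2 change of 1.34 and Hbb-b1 of 1.08, called at the main scaling but not under all 3. In a bulk sample, fewer cells of a type and less RNA of a gene per cell cannot be told apart.

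The promoters of the falling red-cell genes were read for a site of the GATA factors, which govern both erythroid and megakaryocyte genes. The letters AGATAA, sought on both strands in the same window, occurred in 3672 of 32851 promoters (11.2%) and in 5 of 13 promoters of the 19 falling genes, those of Epb42, Epor, Kel, Rhd and Trim10, named after the search; 13 of the 19 had a promoter in the annotation. The Kel promoter (chr6:41704276-41704575, minus strand, match starting at -56), the Epor promoter (chr9:21963527-21963826, minus strand, at -54) and the Rhd promoter (chr4:134864286-134864585, plus strand, at -43) read, from RefSeq build GRCm38.p6:
Kel: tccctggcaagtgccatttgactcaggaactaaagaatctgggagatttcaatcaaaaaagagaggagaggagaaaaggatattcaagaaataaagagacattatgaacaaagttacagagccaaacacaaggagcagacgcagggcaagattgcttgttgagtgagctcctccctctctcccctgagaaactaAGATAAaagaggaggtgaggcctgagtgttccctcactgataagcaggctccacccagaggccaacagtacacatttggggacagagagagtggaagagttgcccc
Epor: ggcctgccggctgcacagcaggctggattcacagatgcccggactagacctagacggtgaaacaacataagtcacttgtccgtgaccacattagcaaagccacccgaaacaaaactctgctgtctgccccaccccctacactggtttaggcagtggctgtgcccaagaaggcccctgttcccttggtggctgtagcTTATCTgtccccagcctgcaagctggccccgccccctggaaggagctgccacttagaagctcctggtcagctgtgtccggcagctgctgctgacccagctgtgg
Rhd: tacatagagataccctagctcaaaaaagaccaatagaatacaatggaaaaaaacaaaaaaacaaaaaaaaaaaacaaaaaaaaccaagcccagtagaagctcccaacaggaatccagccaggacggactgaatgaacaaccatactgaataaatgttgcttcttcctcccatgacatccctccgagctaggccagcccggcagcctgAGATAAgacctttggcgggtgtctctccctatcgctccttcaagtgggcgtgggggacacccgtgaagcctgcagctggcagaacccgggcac

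Many markers of B-cell precursors and mature B cells fell. Of 17 precursor markers, 12 were called lower and 1 higher under all 3 scalings, and of 14 mature markers 8 were lower. Vpreb1, the surrogate light chain of the pre-B receptor, read 1.82 on each Ctrl array and -1.83, -1.90 and -2.02 at 1 dpi (-3.74 ± 0.066, adjusted p 7.6e-08), with all arrays of 1 dpi below all Ctrl arrays. Spib and Pou2af1, B-cell transcription regulators, fell by 3.65 and 2.92. Of 15 tested genes of antigen presentation through MHC class II, 5 were called lower under all 3 scalings, with a median of -0.74 relative to all genes, including H2-Aa (-1.31), Cd74 (-1.07) and H2-Eb1 (-1.02, and -0.98 without Ctrl replicate 1 and -0.999 without replicate 2 of 1 dpi, both of which lost its 2-fold call).

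Some transcription factors of stem cells and megakaryocytes fell, and few genes of platelet receptors, signalling and shape were called. Of 22 such factors, 3 were called lower and 1 higher under all 3 scalings, with a median of -0.77 relative to all genes. Meis1, a homeobox factor of stem cells and megakaryocytes, read 2.80, 2.83 and 2.75 in Ctrl and 1.57, 1.62 and 1.59 at 1 dpi (-1.20 ± 0.061, adjusted p 5.8e-06), without overlap, and Zfpm1, the GATA1 cofactor FOG1, fell by 1.33 (-0.589 in the deposited matrix, where its call was lost). Over 186 tested genes of surface receptors, granule formation, signalling, proplatelet formation and the thromboxane pathway, 2 (Ptafr and Hpgds, both short of 2-fold after normexp) were called higher and 1 lower under all 3 scalings, beside 5.42% and 2.85% of all genes, with a median of -0.22 relative to all genes. The change was 0.69 for Itga2b, 0.48 for Tubb1, 0.47 for Gp9, 0.09 for Pf4, 0.06 for Vwf, -0.09 for Ppbp, -0.17 for Itgb3, -0.54 for Gp5 and -0.82 for Gp1ba, each short of the 2-fold call at the main scaling, although Gp1ba passed it after scaling to the array median (-1.13). Alpha-granule cargo, counted apart, gave 4 of 25 genes higher and 1 lower under all 3 scalings, with a median of 0.18 relative to all genes. The rise of Hpgds was not seen in the deposited matrix (-0.152). The lower gene was Hpgd, which breaks down prostaglandins: it read -0.28, -0.36 and -0.34 in Ctrl and -3.44, -3.28 and -3.13 at 1 dpi (-2.96 ± 0.117, adjusted p 1.9e-06).

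The medians of large household functions shifted by less than 2-fold. Over 156 genes of DNA replication, mitosis, homologous recombination and nucleotide synthesis, the median was -0.50 relative to all genes (-0.29 after quantile normalization). Of these, 1 was called lower at the main scaling but not under all 3 (Cdc7, chosen after its value was seen), beside 2.87% of all genes. At an unadjusted p under 0.05, 14 were higher and 87 lower. Of all 29410 genes, 10249 were higher and 6194 lower at the stricter adjusted p under 0.05 with no minimum fold change. Over 185 genes of protein synthesis, 5 were called higher at the main scaling, beside 12.3% of all genes. At an unadjusted p under 0.05, 111 of the 185 were higher and 22 lower. The median of the cytosolic ribosomal proteins was 0.26 relative to all genes and -0.17 after quantile normalization, so their direction depended on scaling. Over 236 genes of mitochondria and metabolism, 2 (Idi1 and Suclg2) were called lower under all 3 scalings, both short of 2-fold without Ctrl replicate 1 (-0.999 and -0.966), with a median of -0.24. Over 176 genes of folding, breakdown and splicing, 4 were higher and 1 lower, with a median of -0.21.

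**Figure D3:**
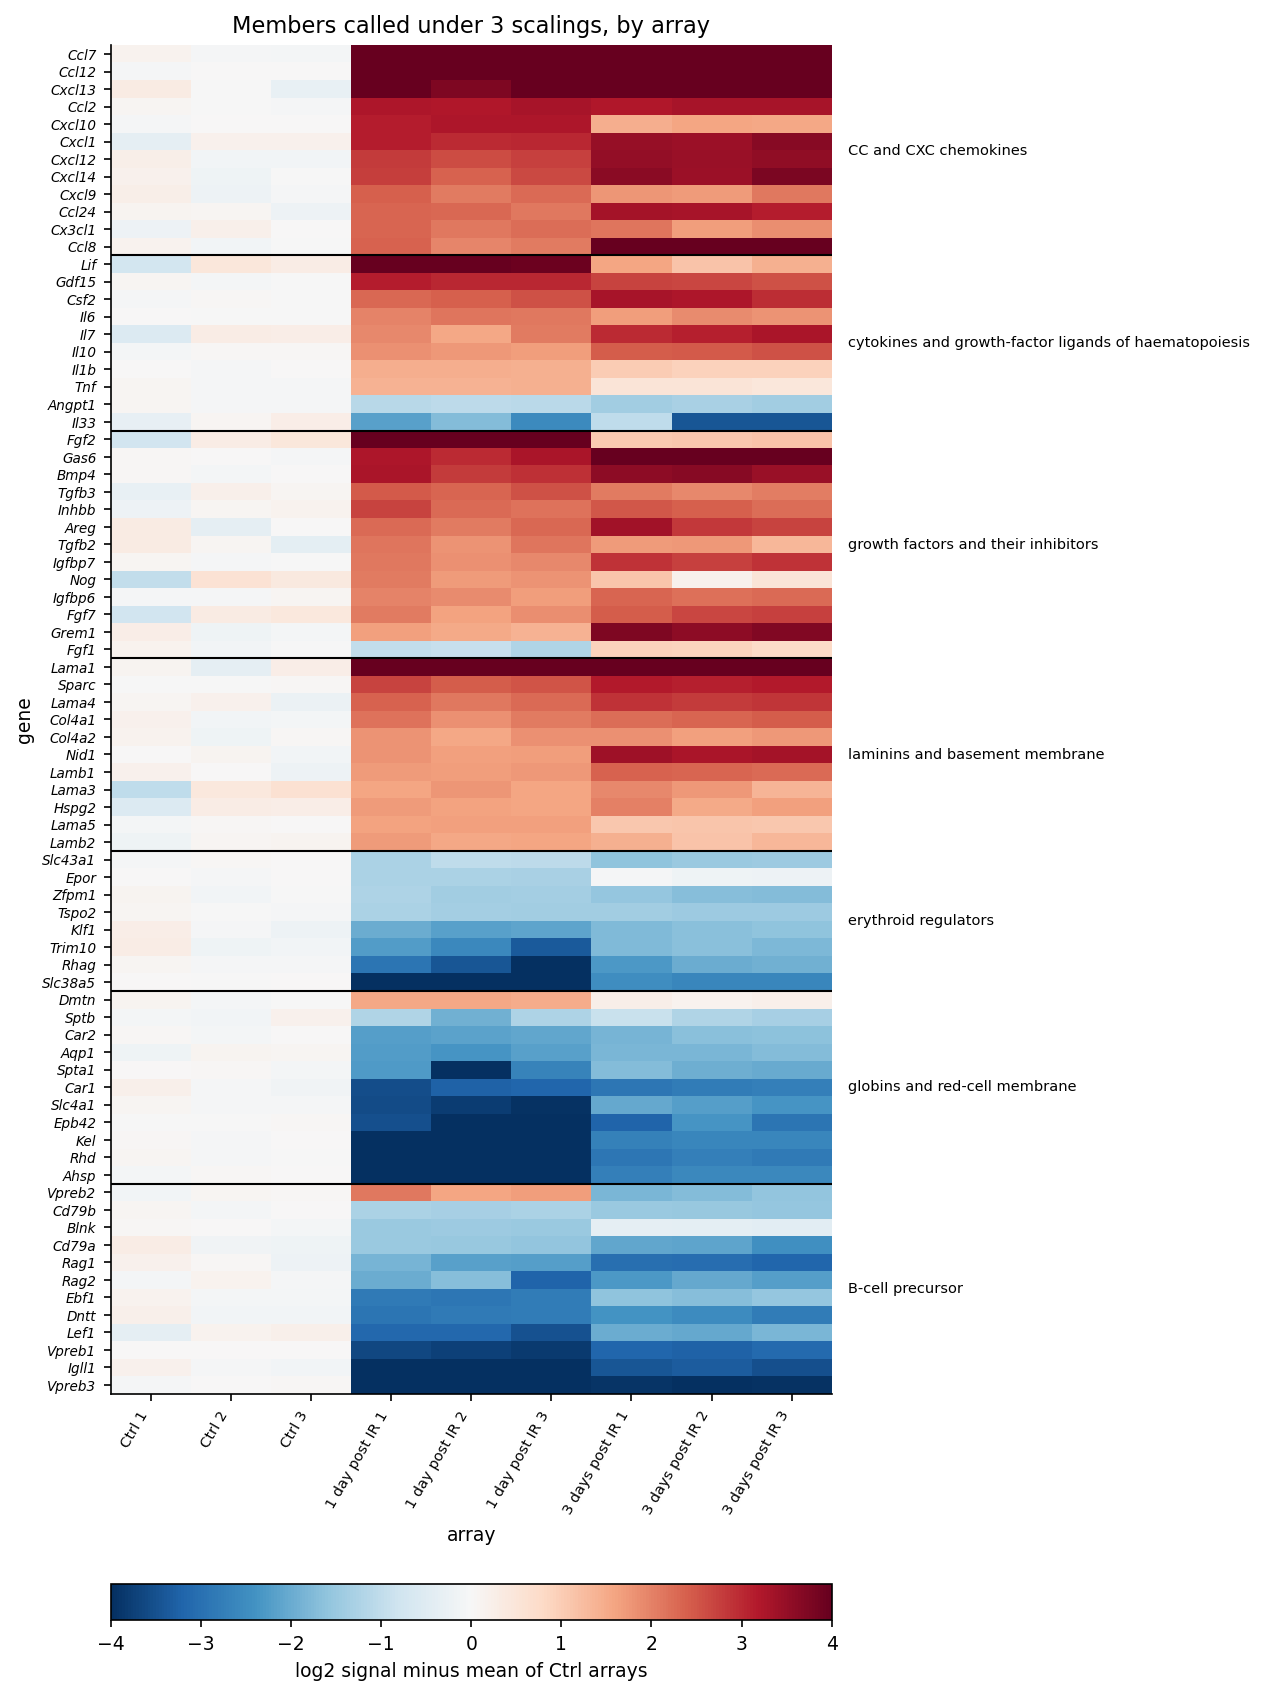
Log2 signal less the mean of the Ctrl arrays (colour, ending at -4 and 4) of members shown of 7 lists, each called under all 3 scalings (vertical axis), on each of the 9 arrays (horizontal axis). Apart from Angpt1, Il33 and Fgf1, which lie lower, the members of the signal and basement-membrane lists lie higher on the 3 arrays of 1 dpi, and apart from Dmtn and Vpreb2, which lie higher, the red-cell and B-cell precursor members lie lower.

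Marker genes of several other marrow cells were called as well, and what part of the changes they carry was not tested. Levels were summed over each list in units of the array's 75th percentile, and calls beside a sum are those under all 3 scalings unless said. Mesenchymal stromal markers, with 11 of 17 called higher, summed to 28.4, 26.8 and 27.2 on the Ctrl arrays and 70.7, 63.9 and 69.1 at 1 dpi, with Vcam1 brightest in Ctrl and Cxcl12 at 1 dpi. Macrophage markers (7 of 20 higher, 2 lower; Lyz2 brightest) summed to 224, 249 and 241 against 394, 359 and 362. Endothelial markers (4 of 16 higher; Ly6c1 brightest) summed to 138, 125 and 125 against 208, 194 and 192. Mast cell, basophil and eosinophil markers (3 of 16 higher; Prg2 brightest) summed to 581, 561 and 537 against 1064, 1047 and 1041. Monocyte markers (2 of 10 higher; Ly6c2 brightest) summed to 253, 234 and 232 against 437, 417 and 414.

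Neutrophil markers, with Mpo brightest and 3 of 18 called higher at the main scaling alone, beside 12.3% of all genes, summed to 1551, 1583 and 1573 against 2539, 2383 and 2363, although their median relative to all genes was 0.27 and after quantile normalization -0.02. T and NK cell markers (1 of 19 higher, 1 lower, beside 5.42% and 2.85% of all genes; Nkg7 brightest) summed to 35.8, 38.0 and 35.9 against 55.8, 52.3 and 52.5. Osteoblast and osteoclast markers (4 of 14 higher; Acp5 brightest) summed to 26.5, 22.2 and 22.5 against 32.5, 32.4 and 32.2, and adipocyte markers (1 of 13 higher; Pnpla2 brightest) to 14.09, 15.03 and 15.17 against 25.1, 24.9 and 24.1. Dendritic markers (1 of 13 higher, 3 lower; H2-Ab1 brightest in Ctrl, Siglech at 1 dpi) summed to 74.4, 85.0 and 84.8 against 96.3, 91.8 and 91.6, although their median relative to all genes was -1.02, and Xcr1 of that list was not above background.

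Lower sums were seen for B-cell precursor markers, at 78.1, 75.8 and 74.2 against 44.9, 46.1 and 44.2 (Myb brightest), for mature B-cell markers, at 48.2, 46.0 and 46.4 against 21.9, 20.2 and 21.8 (Cd74 brightest in Ctrl, Jchain at 1 dpi), and for stem and progenitor markers, at 128, 124 and 120 against 92.3, 94.2 and 93.8 (6 of 18 lower; Myb brightest). Of 19 erythroid markers, 14 were called lower, yet their sum went from 163, 144 and 150 to 291, 238 and 233, in which Hba-a1 alone went from 82.3 to 208. The sum of the 20 megakaryocyte markers was 180, 160 and 159 against 167.7, 154.9 and 152.1, with Pf4 brightest. At the main scaling limma called 0 of them, beside 12.3% of all genes higher and 2.87% lower. Their changes ran from -0.89 to 0.69, all short of 2-fold, so no test with that minimum could call any at this scaling. Their median relative to all genes was -0.34, and -0.31 after quantile normalization. At an unadjusted p under 0.05, 4 markers were higher and 8 lower. Of all 29410 genes, 10249 were higher and 6194 lower at the stricter adjusted p under 0.05 with no minimum fold change. Among the control lists, 37 of 663 tested olfactory and vomeronasal receptors were called higher and 4 lower under all 3 scalings, and 3 of 72 keratins higher and 1 lower, beside 5.42% and 2.85% of all genes.

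**Figure D4:**
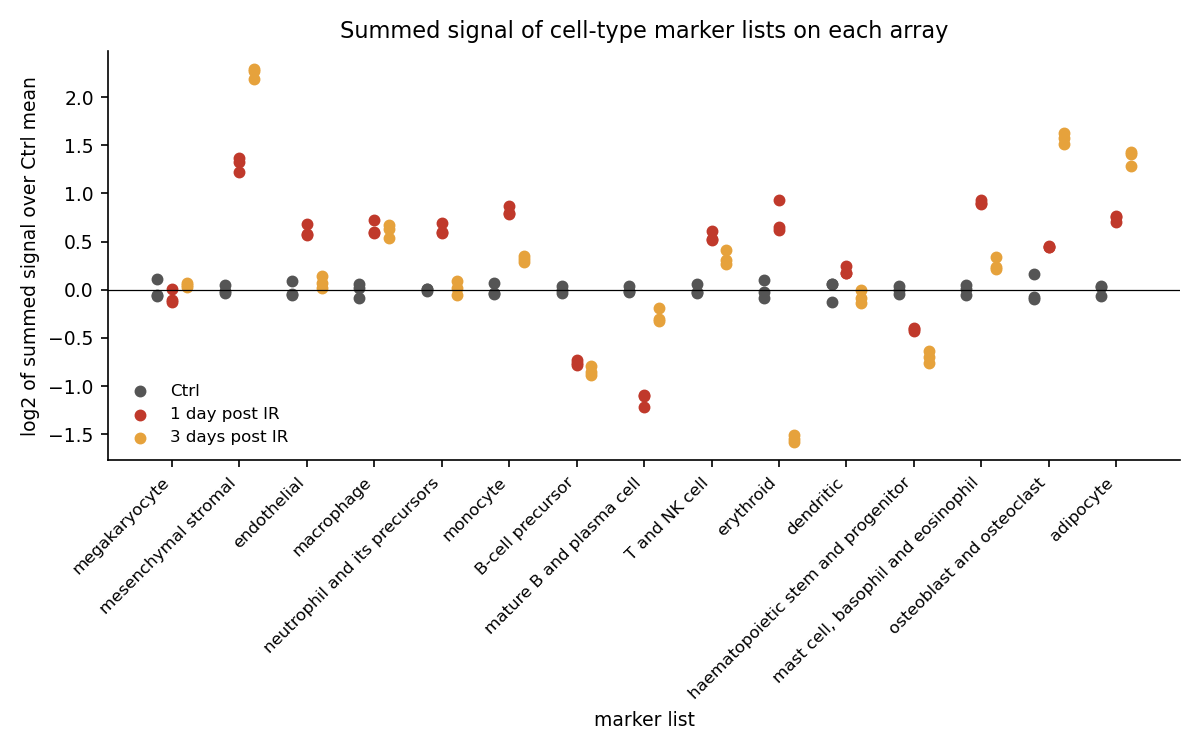
Log2 ratio of the summed signal of each marker list on each array to its mean over the Ctrl arrays (vertical axis), for each list (horizontal axis), with points coloured by group. As plain ratios of 1 dpi to Ctrl, the mesenchymal stromal list has the highest, 2.47, the mature B-cell list the lowest, 0.455, and the megakaryocyte list 0.951.

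Stefins, small inhibitors of cathepsins encoded side by side on chromosome 16, rose together; the family was chosen after its values were seen. All 9 tested were called higher under all 3 scalings, by 1.79 to 3.70, with a median of 2.06 relative to all genes. That median is the value of Cstdc6, which was well above background on 1 of 3 Ctrl arrays. Stfa1 (probe 36285398-36285457, build mm9) read 0.53, 0.56 and 0.48 in Ctrl and 4.26, 4.23 and 4.19 at 1 dpi (3.70 ± 0.062, adjusted p 5.8e-08), and Stfa3 read -0.28, -0.40 and -0.36 against 3.31, 3.28 and 3.24. For both genes every array of 1 dpi lay above every Ctrl array.

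**Figure D5:**
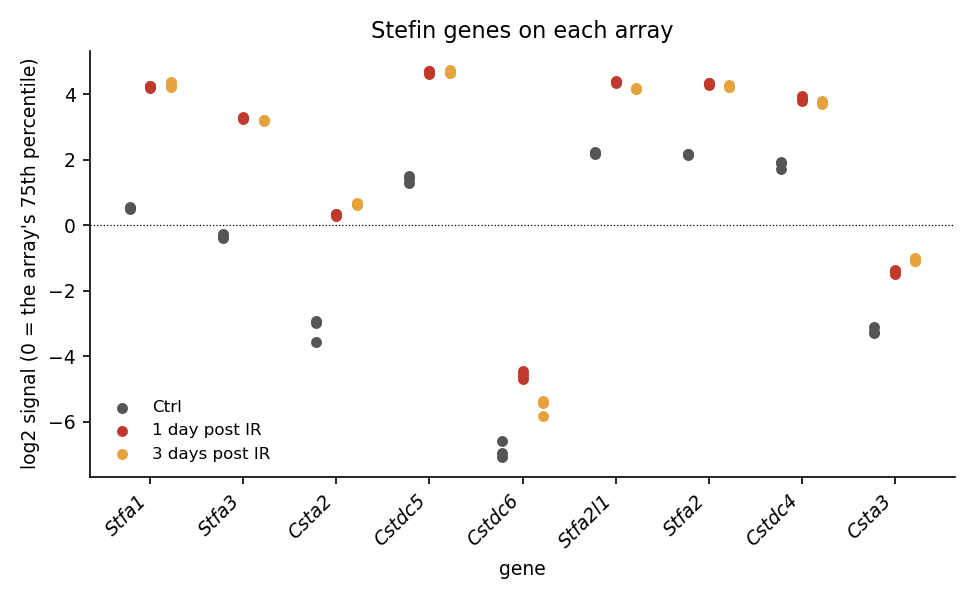
Log2 signal relative to the array's 75th percentile (vertical axis) of each of 9 stefin genes (horizontal axis), with 1 point per array coloured by group. The points of 1 dpi lie above those of Ctrl for all 9 genes, by a mean of 1.79 to 3.70.

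Some genes were well above background in a single group, so that their change is a bound. At the main processing Eda2r, a receptor of ectodysplasin, rose at least 21.2-fold and Inka2 at least 15.2-fold. Kel, the Kell blood-group protease, fell at least 33.8-fold, by a log2 bound of -5.08. These bounds hold for that processing alone: after normexp the fitted log2 changes were 2.07 for Eda2r, 1.78 for Inka2 and -3.34 for Kel.

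Part of the response had receded by 3 dpi. At 3 dpi 1169 genes (3.97%) stood higher than at 1 dpi and 1419 (4.82%) lower, by the same thresholds. Of the 1595 genes called higher at 1 dpi under all 3 scalings, 683 were lower at 3 than at 1 dpi, 118 were higher still and 794 were not called. Of the 839 called lower, 308 were higher at 3 than at 1 dpi, 13 were lower still and 518 were not called. Within the shared slide, against the other 2 Ctrl arrays, 2618 genes passed as higher and 943 as lower, 132 of the 134 named genes called with all arrays were still called, and the medians of 68 lists moved by -0.36 to 0.11. Probes of the same gene differed in size for several named genes, whose values here are those of the brightest probe. That their probes had the same sign was a condition for naming them. The probes ran from 0.43 to 5.04 for Shank2, 0.61 to 4.96 for Kcnq1, 0.44 to 2.55 for Sparc, 0.81 to 2.31 for Lama4, 0.45 to 2.68 for Cd300lf, 0.12 to 1.51 for Hpgds, -1.37 to -0.58 for Meis1 and -1.33 to -0.58 for Zfpm1. For Klf1 they ran from -4.06 to -2.09 and for Hmox1 from 1.61 to 2.87.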

How the data were processed

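RNA of mMKs was measured on 9 single-colour Agilent arrays, 3 Ctrl, 3 at 1 dpi and 3 at 3 dpi. The Feature Extraction 10.7.1.1 text files hold spot signals in arbitrary intensity units, background-corrected per the file headers (intensity, gProcessedSignal). The deposited matrix holds quantile-normalized log2 values and served as a check: of 27068 of its probe names found on the array, 27050 matched within 0.1 log2 units.

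Control and outlier spots were removed, the signal was put on the log2 scale, and each array's 75th percentile was subtracted. Spots of a probe were averaged; a probe was kept if every array of Ctrl, of 1 dpi or of 3 dpi read it well above background, and the brightest probe stood for a gene (29410 of 37316 named genes). Group means of all 9 arrays were fitted with limma 3.58.1 (R 4.3.3 with data.table at 1.17.8 and jsonlite 2.0.0). Genes with a Benjamini-Hochberg adjusted p under 0.05 and at least a 2-fold change were called. The 3 scalings were the 75th percentile, the array median and quantile normalization. The pipeline was tested on simulated data. Figures and promoters used Python 3.11.15, matplotlib 3.10.9, pandas 2.3.3 and numpy 2.4.6.

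Comparisons were 1 dpi with Ctrl and 3 with 1 dpi. Named genes were, among genes well above background on all 6 arrays, without overlap, called under 3 scalings and with all probes of the same sign, the 15 largest rises and falls, up to 4 per function list and up to 3 per marker list of another cell type, with 10 megakaryocyte markers and the 5 largest bounds in each direction. Alternatives in scaling, filter, probe, minimum change, test, slide and replicates were tried. The rule, these alternatives, and the 51 function lists, 15 marker lists and 2 control lists with their members were chosen with earlier results of these data known. Other genes named were chosen after their values were seen. Changes relative to the median of all genes, spike-in scaling and the slide as a fixed block were chosen after seeing the data.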

Additional observations from a re-analysis of the deposited data

Results flagged for a closer look

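The comparison of 3 with 1 dpi gave a called difference, in log2 units at 3 minus 1 dpi, for 55 of the named genes, of which 53 are listed. Groups of 3 arrays were not tested for single arrays far from the others.

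Genes that had risen at 1 dpi and were lower at 3 dpi were Kcnq1 (-3.79), Shank2 (-3.65), Prex2 (-3.59), Fgf2 (-3.48), Cldn24 (-3.21), Slco2a1 (-3.14), Lypd6b (-3.13), Lif (-2.79), Klk1b11 (-2.23), Zfp365 (-1.92), Cd300lf (-1.85), Cxcl10 (-1.66), Fga (-1.52), Eda2r (-1.38), Inka2 (-1.32), Egr3 (-1.16), Timp1 (-1.15), Mmp2 (-1.15), Phlda3 (-1.11) and Sesn2 (-1.06). Genes that had risen and were higher still were Mmp13 (2.10), Ebf3 (1.70), Foxc1 (1.59), Cp (1.56), Gpx8 (1.56), Gas6 (1.46), Fabp4 (1.44), Serping1 (1.44), Atp6v0d2 (1.43), Ackr4 (1.36), Bglap (1.21) and Bglap2 (1.18). The rise of Cp at 1 dpi was reversed in the deposited matrix (-0.40). After normexp the rises of Cp, Foxc1, Fga and Klk1b11 at 1 dpi fell short of the 2-fold call.

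Genes that had fallen at 1 dpi and were higher at 3 dpi were Ahsp (4.99), Abca8a (4.31), Defb26 (4.28), Ero1lb (3.46), Timd4 (3.05), Cd163 (2.81), Hpgd (2.81), F7 (2.69), Slc38a5 (2.63), Cd209a (1.59), Slc4a1 (1.58), Scd1 (1.57), Cd2 (1.51), Vpreb3 (1.46), Fcrla (1.31), Igll1 (1.26) and Bach2 (1.24). Angptl7 and Kel were not well above background on any array of 1 dpi, so their fitted differences, 6.11 and 2.73, depend on the background level and are not measured sizes. For Lypd6b and Abca8a, probes of the same gene differed at 1 dpi minus Ctrl, from 0.27 to 4.38 and from -3.74 to -0.15. Meis1 (-1.04) and Mycn (-1.02) had fallen and were lower still.

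The E1A spike-in probes, used only for an alternative scaling, had a mean log2 signal of 11.75 on the Ctrl arrays, 12.55 at 1 dpi and 11.74 at 3 dpi, a difference of 0.797 between 1 dpi and Ctrl. What part of it reflects the amount of labelled RNA was not tested.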

How the results depend on the processing

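Called genes (4468) numbered 1660 after normexp and quantile normalization, 16443 with no minimum fold change and 23038 with spike-in scaling, and 3561 to 5367 when 1 array was left out. Genes called higher (3623) numbered 1941 with quantile normalization, 1993 with the array median, 1142 with normexp, 1763 in the deposited matrix, 10249 with no minimum, 2105 relative to the median of all genes and 225 with the spike-ins; genes called lower (845) numbered 1512, 2087, 518, 1741, 6194, 1727 and 22813 under the same alternatives in that order. The share higher (81.1%) was 48.9% with the array median, 50.3% in the matrix and 0.977% with the spike-ins. Between 3 and 1 dpi (2588), 1079 were called with normexp and 4489 with no filter. For Cp and Hpgds the matrix gave reversed changes, -0.40 (adjusted p 0.35) and -0.15 (adjusted p 0.57); the cause was not tested. After normexp 12 named genes fell short of the 2-fold call: Cryab, Cp, Hc, H2-DMb2, Lama4, Fga, Ptafr, Hpgds, Foxc1, Gpr176, Klk1b11 and Trabd2b. The replicate number used as a block, as if it paired samples, gave 4273 called genes (3424 higher, 849 lower). After each gene's group mean was subtracted, same-numbered arrays of different groups correlated at -0.107 to 0.128. The slide as a random block gave 3787. Signal over background limits the 298 called genes that are bounds.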

Other observations

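Besides the stefins, 8 families were looked at after the values were seen, and a pair of them is given in more detail. For the others, calls under all 3 scalings are given beside 5.42% higher and 2.85% lower of all genes. They were 16 higher and 15 lower of 336 solute carriers, and 1 higher and 1 lower of 24 claudins. Immunoglobulin segments gave 2 lower of 5, the A disintegrin family 7 higher and 2 lower of 41, and potassium channels 1 higher and 6 lower of 74. A search by histone symbols gave 6 lower of 125 genes. It also took in MHC genes named H2-, among them the falling H2-Aa, H2-DMb2 and H2-Eb1, so these are not counts of histones. Of 396 tested zinc-finger genes named Zfp, Zscan or Zkscan, 10 were called higher and 37 lower under all 3 scalings, with a median of -0.57 relative to all genes (-0.43 after quantile normalization), beside 5.42% and 2.85% of all genes. Of 12 tested glandular kallikreins, serine proteases of chromosome 7, 4 were called lower, Klk1b5 (-2.62), Klk1b26 (-2.43), Klk1 (-1.35) and Klk1b27, which was not well above background at 1 dpi and has no measured size, and 1, Klk1b11, higher by a log2 bound of 2.67 at the main processing, but with a fitted change of 0.955, short of 2-fold, after normexp.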
